A study of Arabidopsis thaliana with 18 samples.

Results

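A group of 31 genes or unnamed probe sets of Arabidopsis thaliana read low on 3 control arrays. They read higher on the 6 control arrays that follow in title order. The mean rise was 2.02- to 8.73-fold after a fixed offset had been added to every signal, which understates the change of dim members. On the first 3 arrays treated with SA (salicylic acid, the plant defence hormone) the members read near the low level. The best known of them are OSM34, which encodes an osmotin-like protein, SAG29 (also SWEET15), which encodes a sugar transporter, EXPB1, which encodes a beta-expansin, and CLE44, which encodes a precursor of a small signalling peptide. The 31 are members of 22746 probe sets (the array's units of measurement, each a set of short probes for a transcript), control probes left out.

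The plants were of accession Est, and biotin-labelled total RNA of 18 samples was measured on ATH1 arrays, 1 sample on each. A control group of 9 samples had received 0.02% silwet, a wetting agent, and a treated group of 9 had received 0.30 mM SA made up in the same silwet solution, so every sample carried silwet and no untreated sample was analysed here. The titles carry the numbers 37 to 54 and, within each treatment, run through the replicate numbers 1, 2 and 3 a total of 3 times. A set of 3 consecutive titles is called a run here, which gives silwet runs 37 to 39, 40 to 42 and 43 to 45 and SA runs 46 to 48, 49 to 51 and 52 to 54. What separates the runs, the tissue, the plants' age, the time of harvest and any genotype beyond the accession were not stated in the labels. Whether the samples of a group were separate plants is not stated either, and the p-values therefore reflect a spread between samples that may be technical.

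The members were chosen by their measured signals on log2(signal + 16), where adding 16 damps the noise of dim probe sets. The rule asked for a mean signal of at least 30 over the 18 arrays, a mean on silwet 37 to 39 at least 1 log2 unit under that on silwet 40 to 45, every array of 37 to 39 under every array of 40 to 45, and a mean on SA 46 to 48 within 0.7 log2 units of that on silwet 37 to 39. A mean signal of at least 30 was reached by 11967 probe sets, 35 met the silwet part of the rule, and 31 met all of it. The mirror rule, for probe sets high on silwet 37 to 39, was met by 106. Of the 31 members, 12 had 1 gene name, 1 (251438_s_at) matched several genes, and 18 had no name in the annotation used here. Named members made up 38.7% of the 31, against 55.4% of the probe sets tested. Because the rule used the silwet arrays and the mean of SA 46 to 48, values on those arrays are given as descriptions. The arrays of SA 49 to 54 entered the rule through the minimum of the mean signal over all 18 arrays, which a dim member could pass by its later arrays alone. Without that minimum 32 probe sets met the rule, all 31 members among them.

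As background, osmotins belong to the thaumatin-like group of pathogenesis-related proteins and are known from cells under osmotic stress and from defence. SWEET proteins let sugars pass across membranes down their gradient, and SAG29 is known from senescing leaves and from osmotic stress. Expansins loosen cell walls, and CLE44 gives rise to the peptide that restrains xylem formation from vascular stem cells. The other 8 named members are listed by locus alone in the gene table, so no role is given for them. In bulk samples such as these, fewer cells of a type and less RNA per cell cannot be told apart.

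The arrays held strong green leaf transcripts. The 4 leaf markers of 16 that could be named (RCA, LHCB4.2, PRK and HPR) had signals from 725 upward on every array. Their summed signal averaged 7465 on silwet 37 to 39, 8608 on silwet 40 to 45, 5951 on SA 46 to 48 and 8496 on SA 49 to 54. The 6 named root markers stayed at or under 16.3, the flower marker ACT12 at or under 10.6, and the seed marker AT1G47540 at or under 9.38. The log2 ratio of the 3′ to the 5′ ubiquitin control probe set, a measure of RNA length, averaged 1.52 ± 0.22 (SD, n = 3) on silwet 37 to 39 and 1.87 ± 0.19 (SD, n = 6) on silwet 40 to 45. It averaged 1.39 ± 0.11 (SD, n = 3) on SA 46 to 48 and 1.86 ± 0.31 (SD, n = 6) on SA 49 to 54, so its mean was lower on both runs where the members were low. The actin ratio averaged 1.84 ± 0.34 (SD) on silwet 37 to 39 and 2.02 ± 0.35 on silwet 40 to 45. It averaged 1.85 ± 0.72 on SA 46 to 48 and 2.13 ± 0.54 on SA 49 to 54. The GAPDH ratio, in the same order, averaged -0.08 ± 0.21, 0.24 ± 0.38, -0.03 ± 0.30 and 0.34 ± 0.27. The part of these ratios and of the leaf marker level in the members' readings was not tested. The arrays' median signal lay between 27.4 and 35.7.

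Averaged over the 31 members, the level on log2(signal + 16) was 5.56 ± 0.08 (SD, n = 3) on silwet 37 to 39, 7.35 ± 0.12 on silwet 40 to 42 and 6.91 ± 0.13 on silwet 43 to 45. In the SA samples it was 5.64 ± 0.21 (SD, n = 3) on titles 46 to 48, 6.94 ± 0.36 on titles 49 to 51 and 7.18 ± 0.09 on titles 52 to 54. Array by array, the average lay between 5.45 and 5.86 on the 6 arrays of the first runs and between 6.72 and 7.48 on the 12 later arrays. The low values on the first runs and the high values on silwet 40 to 45 follow from the rule. The level of SA 49 to 54 entered the rule through the minimum of the mean signal, and in both of those runs it lay near the level of the later silwet arrays.

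**Figure D1:**
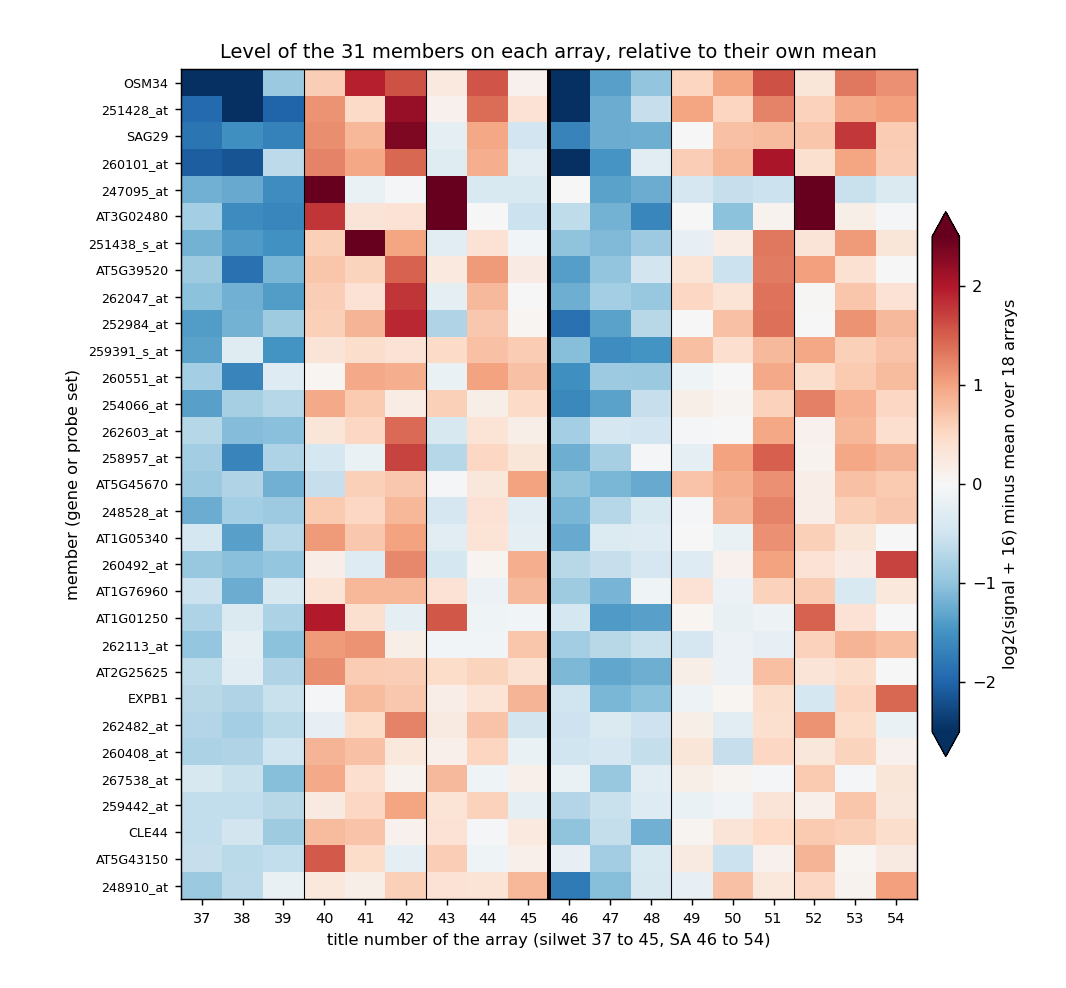
Level of each of the 31 members (rows, ordered by the size of their silwet difference) on each of the 18 arrays (columns, by title number), as log2(signal + 16) minus the member's own mean over all arrays. Blue is low and red is high, and titles 37 to 39 and 46 to 48 are blue for nearly every row. The darkest red cells are those of 247095_at on titles 40, 43 and 52, AT3G02480 on titles 43 and 52, and 251438_s_at on title 41.

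OSM34 had the lowest first-run reading relative to later runs among the 31. Its signal was 32.1, 24.4 and 136 on silwet titles 37, 38 and 39, and on silwet 40 to 45 the lowest, median and highest signals were 296, 632 and 1091. On SA titles 46, 47 and 48 it read 13.7, 96.9 and 129, and on SA 49 to 54 it ran from 340 through a median of 588 to 847. The later arrays all lay above the first 3 in both treatments. On the log2 scale the silwet difference was -3.13 and the corresponding SA difference -2.85. With the offset of that scale included, these are 8.73-fold and 7.21-fold lower levels. The spread within the first runs was wide, with SDs of 1.04 and 1.23 (n = 3 each). The SD was 0.78 over silwet 40 to 45 and 0.48 over SA 49 to 54 (n = 6 each). The rank of OSM34 depends on the offset. With an offset of 1 its silwet difference was -3.54, against -3.88 for SAG29 and -4.21 for AT3G02480.

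SAG29 was dim on the first runs. The signals on silwet titles 37, 38 and 39 were 4.02, 8.41 and 5.81, and those on silwet 40 to 45 ran from 34.6 through a median of 115 to 340. On SA titles 46, 47 and 48 they were 6.13, 13.8 and 14.5, and on SA 49 to 54 from 55.4 through a median of 99.6 to 225. No first-run array of either treatment reached a later array of the same treatment. Its silwet difference was -2.44 and its SA difference -2.15 on the log2 scale, which understates the change of a probe set this dim.

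EXPB1 and CLE44 were near the edge of the rule in their silwet difference. EXPB1 read 27.6, 25.8 and 32.1 on silwet titles 37, 38 and 39 and 52.8 to 111, median 84.9, on silwet 40 to 45. Its signals on SA titles 46, 47 and 48 were 34.1, 15.8 and 18.6, and they ran from 36.2 through 68.1 to 175 on SA 49 to 54, so the SA runs came within a few signal units of each other without overlapping. CLE44 read 35.3, 41.1 and 26.9 on silwet titles 37, 38 and 39 and 61.5 to 120, median 81.5, on silwet 40 to 45. On SA titles 46, 47 and 48 CLE44 read 23.4, 36.4 and 18.3, and on SA 49 to 54 it ran from 66.2 through 93.1 to 108, with a gap between the groups. The silwet differences were -1.13 for EXPB1 and -1.02 for CLE44, and the SA differences -1.203 and -1.36.

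Among members known by locus alone, AT3G02480 had the widest range. It read 12.5, 1.41 and 0.71 on silwet titles 37, 38 and 39, and 19.5 to 409 with a median of 49.1 on silwet 40 to 45. On SA titles 46, 47 and 48 it read 17.1, 6.77 and 0.69, and on SA 49 to 54 it ran from 9.47 through 37.5 to 505. The SA groups overlapped, since title 50 lay under title 46. AT5G39520 was lower by 2.002 on the log2 scale in the silwet comparison, with signals of 55.1, 20.6 and 43.7 against 136 to 350. In the SA samples it read 34.9, 51.0 and 80.9 on titles 46, 47 and 48 and 75.7 to 310, median 154, on the later titles, with 1 overlapping array.

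AT5G45670 and AT2G25625 read lower on SA 46 to 48 than on silwet 37 to 39, although within the limit of the rule. AT5G45670 read 31.2, 37.2 and 22.7 on silwet titles 37, 38 and 39, 44.4 to 165 (median 106) on silwet 40 to 45, 28.9, 24.7 and 21.4 on SA titles 46, 47 and 48, and 84.4 to 181 (median 133) on SA 49 to 54. Its SA difference of -1.85 was larger than its silwet difference of -1.29. AT2G25625 read 72.7, 96.2 and 65.7 on silwet titles 37, 38 and 39 and 163 to 291, median 190, on the later silwet titles. It read 46.8, 39.5 and 43.3 on SA titles 46, 47 and 48, with an SD of 0.09 log2 units (n = 3), and 108 to 216, median 146, on SA 49 to 54. The first and later SA arrays of both genes were separated. Over the 31 members, the mean on SA 46 to 48 lay above that on silwet 37 to 39 in 21 and below it in 10.

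**Figure D2:**
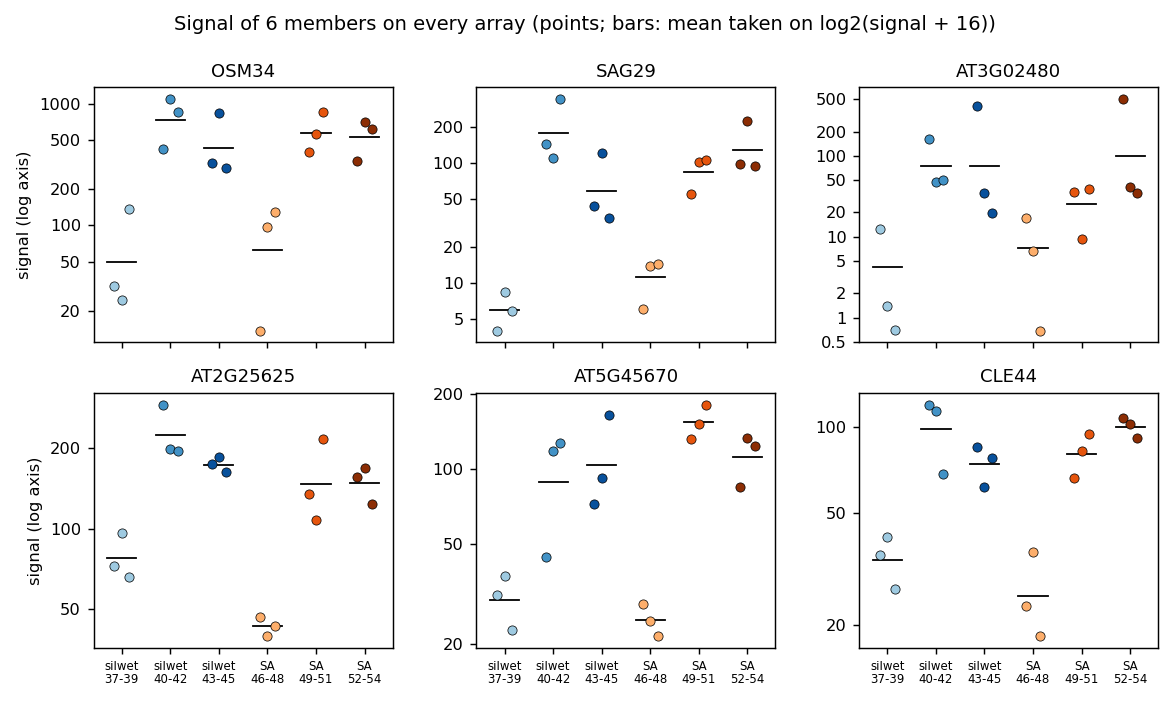
Signal (log axis) of OSM34, SAG29, AT3G02480, AT2G25625, AT5G45670 and CLE44 on every array, grouped by treatment and title run (n = 3 arrays each); points are arrays and bars the mean taken on log2(signal + 16). SAG29 lies at 4.02 to 14.5 on the 6 first-run arrays and at 34.6 to 340 on the 12 later ones, while AT3G02480 has 1 far higher array in the runs 43 to 45 and 52 to 54.

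The remaining 4 named members had silwet differences near the limit of the rule. AT1G05340 read 75.9, 33.0 and 60.6 on silwet titles 37, 38 and 39 against 87.7 to 247 on silwet 40 to 45, and 35.9, 83.2 and 83.5 on SA titles 46, 47 and 48 against 95.2 to 258 on SA 49 to 54. AT1G76960, the brightest member with a mean signal of 464, read 284, 169 and 315 against 380 to 765 in silwet, and 219, 179 and 390 against 319 to 661 in SA, where the groups overlapped. AT1G01250 read 10.5, 18.9 and 10.1 against 22.6 to 160 in silwet, and 17.1, 0.74 and 1.58 against 23.63 to 109 in SA. AT5G43150 read 111, 101 and 107 against 142 to 528 in silwet, and 146, 87.2 and 128 against 114 to 324 in SA, where the groups overlapped as well. Their silwet differences lay between -1.02 and -1.26 log2 units, and their SA differences between -0.64 and -1.33.

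Of the 19 members without a single gene name, 251428_at was the most like OSM34 in size. It read 17.03, 6.46 and 15.6 on silwet titles 37, 38 and 39, 121 to 562 (median 211) on silwet 40 to 45, 3.999, 37.5 and 69.2 on SA titles 46, 47 and 48, and 169 to 284 (median 232) on SA 49 to 54. Its first and later arrays did not overlap in either treatment, and its differences were -3.09 in silwet and -2.38 in SA. The bright probe set 260101_at had differences of -2.29 and -2.46, and 251438_s_at, which matches several genes, of -2.06 and -1.51.

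Over all 31, the silwet difference that the rule used ranged from -3.13 to -1.02, with a median of -1.29. With the offset included, that range is 8.73-fold to 2.02-fold. Just inside the limit of -1 were AT5G43150 at -1.02, CLE44 at -1.02 and EXPB1 at -1.13. The named probe sets just outside it that met the other parts were AT1G49975 at -0.98, AT4G21620 at -0.96 and AT1G75900 at -0.94. A further 4 probe sets met the silwet part but lay more than 0.7 from it on SA 46 to 48. AT5G48490, ARD4 and AT1G29660 read lower there than on silwet 37 to 39, by -1.02, -0.72 and -1.58, and AT5G12940 read higher, by 0.96. The members nearest to that limit were AT2G25625 at -0.66 and 251428_at at 0.65. In the fit across 17059 probe sets (limma, Benjamini-Hochberg adjusted p under 0.05), 0.891% were called lower and 2.01% higher on silwet 37 to 39 than on 40 to 45. Among the members 23 of 31 were called lower, from which nothing is read, since this contrast chose them. That number was 8 without replicate 2 or without replicate 3 and 31 with the replicate number as a block.

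In the SA samples, all 31 members read lower on titles 46 to 48 than on 49 to 54, from -0.64 to -2.85 log2 units with a median of -1.36, against a median of -0.04 over all probe sets tested. Of the 31, 22 were lower by at least 1 log2 unit. The 3 first arrays lay under all 6 later ones in 24 members and overlapped them in 7, against 14.5% of the probe sets tested without overlap in this direction. Calls in the same fit numbered 26 of 31 members lower, and the background was wide, with 15.9% of probe sets called lower and 14.6% higher. The rule had fixed the mean of SA 46 to 48 near a low level, so nothing is read from these shares. OSM34 (-2.85), 260101_at (-2.46), 251428_at (-2.38) and SAG29 (-2.15) were the lowest in this comparison, and AT5G43150 (-0.64) and 267538_at (-0.64) the nearest to 0.

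**Figure D3:**
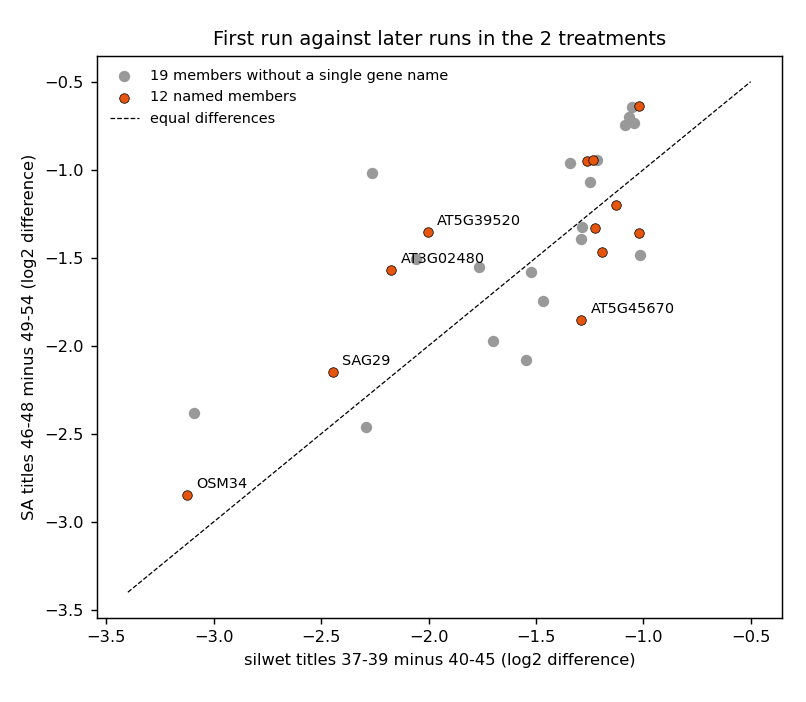
Log2 difference of the first run from the later runs for the 31 members, in silwet (horizontal axis, titles 37 to 39 minus 40 to 45, used by the rule) and in SA (vertical axis, titles 46 to 48 minus 49 to 54); orange points have 1 gene name and the dashed line marks equal differences. All points lie below -0.6 on the vertical axis, with OSM34 lowest at -3.13 and -2.85.

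Levels on SA 49 to 54 were set beside those on silwet 40 to 45. The difference over the 31 members had a median of -0.06 and ran from -0.76 for 247095_at to 0.50 for 258957_at, with 29 of 31 within 0.5 log2 units. It was -0.03 for OSM34, 0.01 for SAG29, -0.15 for EXPB1, 0.06 for CLE44, 0.39 for AT5G45670 and -0.38 for AT2G25625. None of the members was called by limma in this comparison, and neither was any other probe set (0% of 17059), although 1031 had an unadjusted p under 0.05. A fit with the replicate number as a block called 13, none of them a member. The rule had fixed that silwet 40 to 45 lay high, so this comparison too is a description.

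The rule used SA 49 to 54 in the mean signal alone, with equal weight for each array, and the comparison of SA 52 to 54 with SA 49 to 51 was tested. No member passed it, and no probe set of 17059 did (0%), with a smallest limma adjusted p of 0.957 and 652 probe sets at an unadjusted p under 0.05. The members' differences ran from -0.50 to 1.45 log2 units with a median of 0.23, against -0.02 over all probe sets tested. That median was 0.0925 without replicate 1, 0.0540 without replicate 2 and 0.43 without replicate 3, and within the replicate numbers 1, 2 and 3 it was 0.49, 0.48 and -0.22. The differences lay above 0 in 21 of 31 members and below 0 in 10, while 46.3% of all probe sets tested lay above 0. Precision was low: the 95% interval lay within 1 log2 unit of 0 for 14 of the 31 members and for 92.9% of all probe sets tested, so a 2-fold change between these runs may go undetected in many members.

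OSM34 differed by -0.12 ± 0.58 (SE, 95% interval -1.33 to 1.097) between these SA runs, and SAG29 by 0.52 ± 0.39 (SE, interval -0.30 to 1.35). CLE44 differed by 0.27 (interval -0.16 to 0.70) and AT2G25625 by 0.01 (interval -0.44 to 0.46), so that both intervals lay within 1 log2 unit of 0. The largest value, 1.45 for AT3G02480, had an interval of -0.27 to 3.18. Probe sets 262113_at (0.99, interval 0.43 to 1.54) and 254066_at (0.62, interval 0.05 to 1.199) were the 2 members at an unadjusted p under 0.05, and both had a limma adjusted p of 0.957. The signals of 262113_at were 31.1, 40.8 and 38.6 on SA titles 49, 50 and 51 and 78.3, 97.2 and 90.3 on titles 52, 53 and 54, without overlap.

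The same step between the later silwet runs went the other way for most members. On silwet 43 to 45 the mean lay below that on silwet 40 to 42 in 27 of 31 members and above it in 4, with a median of -0.34 log2 units against 0.06 over all probe sets tested. The difference between the steps, SA minus silwet, was above 0 in 29 of 31 members with a median of 0.62, against 41.5% of all probe sets tested and a median of -0.07. This comparison was added after the values were seen, and the silwet arrays in it had served the rule. It passed the limma threshold for no member and for no probe set (0% of 17059, smallest adjusted p 0.682), while 1237 had an unadjusted p under 0.05. SAG29 had the largest such difference, 1.88 ± 0.56 (SE, interval 0.72 to 3.05, limma adjusted p 0.682). Its mean level was 7.58 on silwet 40 to 42 and 6.22 on silwet 43 to 45, and 6.65 and 7.18 on the corresponding SA runs.

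**Figure D4:**
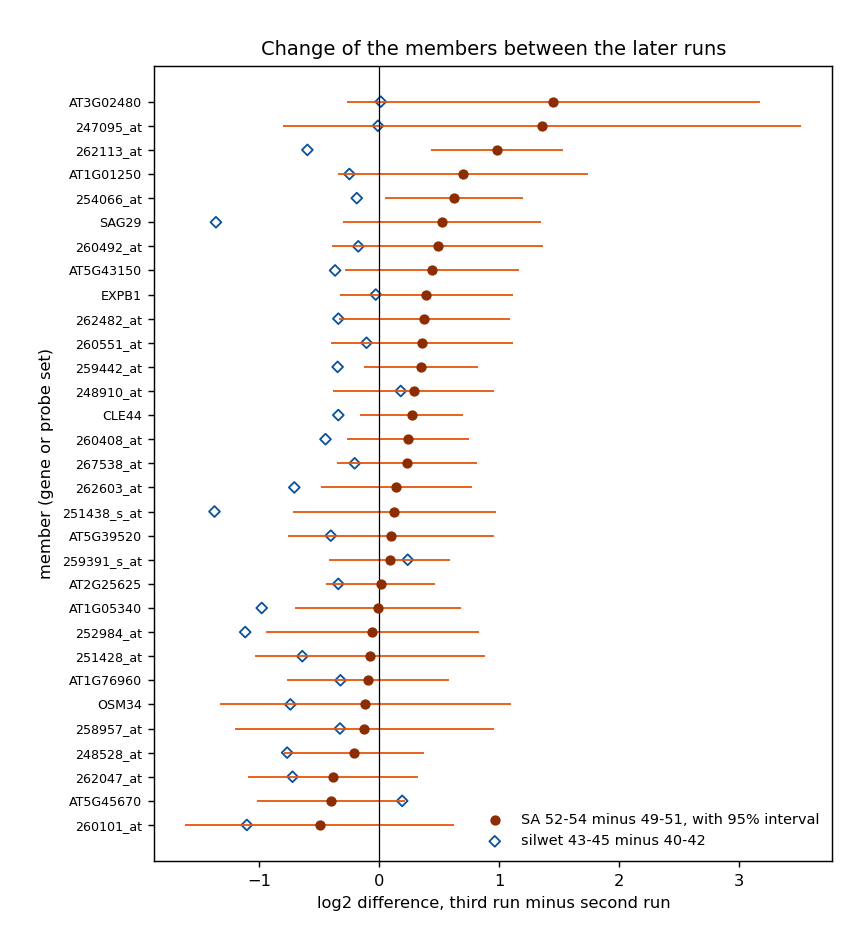
Log2 difference of the last run from the one before it for each of the 31 members, in SA (filled points with 95% intervals, titles 52 to 54 minus 49 to 51) and in silwet (open diamonds, titles 43 to 45 minus 40 to 42). Most intervals cross 0, and the diamonds lie left of 0 in 27 of 31 rows.

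Some members read far higher on the arrays with titles 40, 43 and 52, which all carry replicate number 1, than on the rest of the later arrays. Probe set 247095_at read 978, 1419 and 1355 on those arrays and 67.7 to 106 on the other 9 later arrays, while on silwet 37 to 39 it read 26.6 to 38.5. AT3G02480 read 161, 409 and 505 there and 9.47 to 50.0 on the other 9. AT1G01250 read 160, 116 and 109 there and 22.6 to 42.8 on the other 9. These 3 members lay over 1 log2 unit above the next array of the run on each of the 3 arrays, which held for 0.293% of the probe sets tested. Being merely the highest of the run on all 3 held for 7 members and for 15.3% of the probe sets tested. Titles 40 and 43 lay on the high side of the rule, and all 3 arrays counted in its minimum of the mean signal. Nothing is therefore read from these shares.

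Without those 3 arrays, an alternative chosen after the values were seen, 25 of the 31 members still met the rule. AT3G02480, AT1G01250, CLE44, AT5G43150, 260408_at and 267538_at did not. Of these, AT3G02480 and 260408_at still met the limit on the silwet difference and dropped out through the minimum of the mean signal. The silwet difference of 247095_at became -1.10 in place of -2.26, and that of AT3G02480 -1.38 in place of -2.17. The SA difference of 247095_at became -0.36 in place of -1.02, and the later SA step of AT3G02480 became 0.36 in place of 1.45. For OSM34 the silwet difference was -3.42 and the SA difference -3.00 without them, and for SAG29 they were -2.59 and -2.23.

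**Figure D5:**
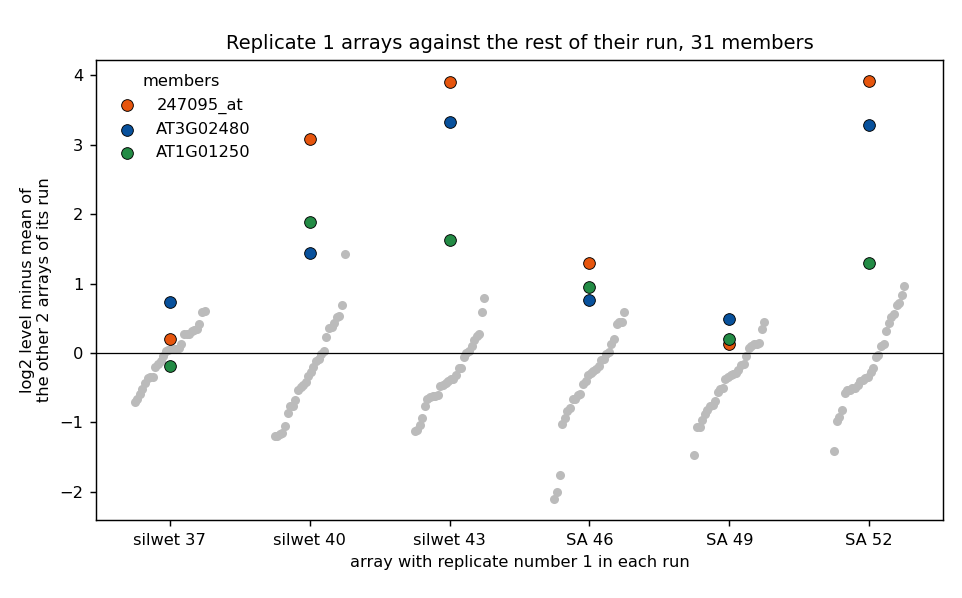
Log2 level on each array with replicate number 1 minus the mean of the other 2 arrays of its run, for the 31 members (grey, with 247095_at, AT3G02480 and AT1G01250 in colour). The coloured points stand at 1.30 to 3.92 on titles 40, 43 and 52, and 247095_at stands at 0.21, 1.29 and 0.13 on titles 37, 46 and 49.

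Lists of genes of 21 pathways, written from general knowledge, held 92 loci that were named and tested. SAG29 was the 1 member among them. In the list of sugar starvation and senescence genes 3 of 35 loci were tested, and the others were SAG101 and AT1G02470. SAG101, a partner of EDS1 in defence signalling, had a value of -0.00393 log2 units on silwet 37 to 39 against 40 to 45 and rose by 0.72 on SA 46 to 48 against SA 49 to 54 (limma adjusted p 0.005). AT1G02470 passed neither comparison, with values of 0.04 and 0.33. Over the 92 loci, 1 was called lower and 9 higher on silwet 37 to 39 than on 40 to 45, where 0.891% and 2.01% of all probe sets tested were called. The 1 lower call was SAG29, which the rule had chosen by this same contrast, so nothing is read from it. The split of calls was 6 lower and 15 higher with the replicate block, 8 and 12 with array weights, 5 and 9 without titles 40, 43 and 52, and 4 and 5 without replicate 1. On SA 46 to 48 against 49 to 54, 25 of the 92 were called lower and 24 higher, where 15.9% and 14.6% of all probe sets tested were called. SAG29 was among those 25 as well. The lower calls numbered 14 without replicate 2 and 14 without replicate 3.

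The cold, drought and abscisic acid list, which holds genes of the osmotic stress response, had 5 loci tested of 36. None passed in silwet, where the median was -0.32 and all 5 values were below 0, against a median of 0.02 over all probe sets tested. On SA 46 to 48 against 49 to 54, 2 of the 5 were called lower, in a comparison where 15.9% of all probe sets tested were called lower. These were COR47 at -1.11 (limma adjusted p 0.036) and COR15B at -1.07 (limma adjusted p 4.7e-04), both encoding cold-induced protective proteins. COR15A (-0.90) and DI21 (-0.26) were not called, and LTI30 went the other way at 0.35 (limma adjusted p 0.678). In the list of cell wall loosening genes 12 loci of 36 were tested, EXPB1 not being a locus of that list. On silwet 37 to 39 XTH18, a wall-remodelling enzyme gene, was higher by 1.24 (limma adjusted p 7.3e-04) and no locus was called lower. The expansin genes of the list were mixed there and none was called. EXPA8 had a value of -1.46 (limma adjusted p 0.117), EXPA15 -0.66, EXPB3 -0.59 and EXPA4 -0.12. The values of EXPA9, EXPA16 and EXPB2 lay above 0, at 0.12, 0.105 and 0.09. On SA 46 to 48 against 49 to 54, 5 of the 12 were called lower, led by EXPA8 at -2.01 (limma adjusted p 0.004), and 1 higher, XTH18 at 1.29 (limma adjusted p 3.4e-05), beside 15.9% and 14.6% of all probe sets tested. No locus of the 21 lists was called between SA 49 to 51 and 52 to 54.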

How the data were processed

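Each array's deposited file gives a linear signal intensity for every probe set. The authors used MAS5, per the submitters' processing notes, and its version and settings were not stated there. Every array had been scaled by the authors to one level, since its mean signal without the lowest and highest 2% of probe sets lay between 100.008 and 100.01. A change of total RNA would therefore not be seen, and dim signals are noisy. The number of arrays limits the precision. No 2 arrays held identical values.

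Of 22810 probe sets 64 controls were left out, and 17059 at or above the 25th percentile of mean signal were tested, all 31 members among them. Levels are log2(signal + 16), where the added 16 shrinks differences of dim probe sets. One limma 3.58.1 model (R 4.3.3) with a mean for each of the 6 runs, a variance trend and Benjamini-Hochberg adjustment at 0.05 gave all tests, which were two-sided, and the same script was tested on simulated data. Plots used matplotlib 3.10.9 in Python 3.11.15. Gene names came from the platform annotation, in which 13513 probe sets have 1 gene, 503 several and 8730 none here. Of the former 13436 matched a locus of the TAIR10.1 gene table.

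The members and lists were chosen with earlier results of these data known. Named were the named members by size of their silwet difference, members of a list and those next to the limit of the rule. Loci that are no members were named only from the lists of senescence, of cold and drought, and of cell wall loosening. The other lists entered the totals alone, although some of their loci had larger silwet differences. Examples are PDF1.2 at -1.95 (limma adjusted p 0.236) and UGT76B1 at 1.85 (limma adjusted p 0.008). Unnamed probe sets described in the text were chosen after their values were seen. Silwet and SA arrays with equal replicate numbers deviated in the same way (correlations of 0.757, 0.563 and 0.645 over probe sets for numbers 1, 2 and 3, against -0.53 to -0.02 for unequal numbers). Deviations within a treatment cancel over its replicate numbers, so positive values for equal numbers push the others negative. The negative values are therefore no separate evidence. The replicate numbers may pair the arrays, so a fit with the replicate number as a block was run as an alternative. Other alternatives were other offsets, filters, limits of the rule, quantile normalization, array weights, no variance trend, and leaving out each replicate number. Promoter motifs and sequences were not analysed here.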

Additional observations from a re-analysis of the deposited data

Results flagged for a closer look

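In 4 of 52 groups of arrays examined for the 12 named members and for the average of all 31, 1 array lay far from the rest of its group (Dixon's test). Chance gives about 1 in 20 for separate groups whose arrays share 1 level. Here the groups overlap, and a group of all 9 arrays of a treatment mixes the low first run with higher later runs. That share is therefore no exact yardstick. AT3G02480 on SA title 52 had a level of 9.03 on log2(signal + 16), against 5.83 for the next array of SA 49 to 54, and the same array stood apart among all 9 SA arrays. AT1G01250 on the same array had a level of 6.97, against 5.85 for the next of SA 49 to 54. AT2G25625 on silwet title 40 had a level of 8.26, against 7.75 for the next of silwet 40 to 45. All of these arrays carry replicate number 1.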

How the results depend on the processing

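Across the alternatives no result changed its direction where it had been called, and the comparison of SA 52 to 54 with 49 to 51 gave 0 calls under every one of them. The rule was met by 31 probe sets as stated, by 13 with an offset of 64, by 14 with a mean signal of at least 100, by 63 with a silwet difference of at most -0.8, and by 36 to 59 when a replicate number was left out, with 19 to 26 of the 31 among them. The median silwet difference of the members was -1.82 with an offset of 1, -0.88 with an offset of 64, -1.34 with quantile normalization, -1.36 with array weights, -1.36 without titles 40, 43 and 52, and -1.45 to -1.33 without 1 replicate number. The median SA difference of titles 46 to 48 from 49 to 54 was -1.81 with an offset of 1, -0.78 with an offset of 64, -1.47 with the filter at the median (27 of 31 members tested), -1.30 with array weights, -1.40 without titles 40, 43 and 52, and -1.40 to -1.38 without 1 replicate number. The median of SA 49 to 54 minus silwet 40 to 45 was -0.21 to 0.0213 without 1 replicate number.

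The replicate block, which pairs arrays by number, gave 513 lower and 664 higher calls, in place of 152 and 343, on silwet 37 to 39 against 40 to 45, 13 in place of 0 between SA 49 to 54 and silwet 40 to 45, and 21 in place of 10 called list loci in silwet. Without titles 40, 43 and 52 there were 243 lower calls in silwet. Array weights gave 524 lower and 806 higher calls in silwet and 20 called list loci there. Without 1 replicate number the silwet calls were 11 to 104 lower and 33 to 222 higher, the called list loci in silwet 4 to 9, and the SA first-run calls 2512 to 5278 in place of 5211, with 33 to 55 called list loci in place of 49 there. The cause of these shifts was not tested, and the fits without 1 replicate number also hold fewer arrays. Dim signals limit what the offset leaves of a difference, and 3 arrays per run limit every comparison.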
